A study of Mus musculus with 41 samples.

Results

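The 9 heat shock and chaperone genes described here were Hspa1a, Hspa1b, Hspa8, Hspa5, Hsp90aa1, Hsp90ab1, Hsph1, Hspb1 and Dnajb1, chosen by symbol and not by their measured values, out of 51410 genes counted. All 9 were found in each of 4 deposited count tables, and 8 or all 9 of them passed the filter on low counts, depending on the comparison. The tables held 31 RNA-seq libraries from mouse embryonic stem cells (ESCs), 1 table for each time in α-amanitin. The wild type (WT) was the R1 line, and the knockout (KO) was represented by Caprin1 KO clone 2 and Caprin1 KO clone 4, each a single clone. CAPRIN1 is a cytoplasmic RNA-binding protein of stress granules. All groups shared 4 days in 1 µM retinoic acid, which drives ESCs to differentiate, in medium lacking LIF, the cytokine that keeps them pluripotent. All were then sampled at 0, 2, 4 or 8 h of 2 µg/ml α-amanitin, a mushroom toxin that blocks transcription by RNA polymerase II. Each time had 4 WT libraries and 2 of each clone, apart from 0 h, where clone 4 was represented by 1 library (replicate 2).

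Chaperones bind unfolded or partly folded proteins and help them reach or regain their shape. HSP70 proteins hold and release short stretches of client protein in cycles driven by ATP. In the cytosol, Hspa8 encodes the constitutive HSP70, and Hspa1a and Hspa1b encode the heat-inducible HSP70 from a pair of near-identical neighbouring genes. Hspa5 encodes BiP, the HSP70 of the endoplasmic reticulum (ER). Dnajb1 encodes an HSP40, a J-domain partner that delivers clients to HSP70 and stimulates its ATPase, and Hsph1 encodes an HSP110 that exchanges the nucleotide of HSP70. Hsp90aa1 and Hsp90ab1 encode the inducible and the constitutive cytosolic HSP90, which mature kinases and steroid receptors. Hspb1 encodes a small heat shock protein that holds unfolded proteins without ATP. Cytosolic heat shock genes are classic targets of the transcription factor HSF1, which binds heat shock elements, whereas Hspa5 is a classic target of the unfolded protein response, whose factor ATF6 acts at the ER stress response element (ERSE).

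Promoter sequences are shown because Hspa5 and most cytosolic members differed from WT in opposite directions in clone 2, and these are the stretches in which both kinds of element lie. Each line gives the 130 bases before the annotated start, 5′ to 3′ on the gene's strand, from RefSeq on GRCm38.p6, with any match to a searched motif in capitals. The ERSE was searched as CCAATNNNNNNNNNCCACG or its reverse complement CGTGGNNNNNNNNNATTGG, and a pair of inverted heat shock repeats as GAANNTTC or TTCNNGAA, on both strands.
Hspa5 (chr2:34771960-34772089, plus strand): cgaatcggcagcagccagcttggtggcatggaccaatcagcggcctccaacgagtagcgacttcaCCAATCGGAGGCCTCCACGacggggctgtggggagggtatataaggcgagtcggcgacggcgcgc
Hsp90b1 (chr10:86705445-86705574, minus strand): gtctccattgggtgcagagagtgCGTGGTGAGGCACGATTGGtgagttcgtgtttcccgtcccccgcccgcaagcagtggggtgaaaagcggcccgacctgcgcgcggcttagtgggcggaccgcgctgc
Dnajc3 (chr14:118937802-118937931, plus strand): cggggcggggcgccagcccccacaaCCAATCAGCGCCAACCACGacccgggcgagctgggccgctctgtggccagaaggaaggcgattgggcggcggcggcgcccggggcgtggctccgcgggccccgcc
Hspa1a (chr17:34972157-34972286, minus strand): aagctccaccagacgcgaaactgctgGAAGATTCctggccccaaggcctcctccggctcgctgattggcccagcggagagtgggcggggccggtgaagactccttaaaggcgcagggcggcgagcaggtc
Hspa1b (chr17:34959239-34959368, minus strand): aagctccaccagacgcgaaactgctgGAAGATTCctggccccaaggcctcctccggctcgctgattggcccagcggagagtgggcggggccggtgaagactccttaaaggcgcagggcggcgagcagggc
Hsph1 (chr5:149636337-149636466, minus strand): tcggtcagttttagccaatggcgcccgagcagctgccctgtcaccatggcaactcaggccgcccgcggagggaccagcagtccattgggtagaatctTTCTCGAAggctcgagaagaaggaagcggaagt
Hspb1 (chr5:135887789-135887918, plus strand): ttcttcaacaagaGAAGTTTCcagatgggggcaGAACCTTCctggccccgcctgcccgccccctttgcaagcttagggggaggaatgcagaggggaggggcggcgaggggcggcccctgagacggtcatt

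The ERSE of Hspa5 began 65 bases before the start, that of Dnajc3 at 105 and those of Hsp90b1 at 107 and 212 (the last outside the stretch shown). In all 250-base promoters of the table, the ERSE letters occurred in 37 of 32851 (0.113%) and the heat shock pair in 4218 of 32851 (12.8%). The heat shock pair began 104 bases before the start in both Hspa1a and Hspa1b, at 33 or 54 in Hsph1 for its 2 annotated starts (the first is shown), and at 117 and 97 in Hspb1. Hspa1a and Hspa1b were identical at 129 of the 130 bases shown (99.2%). The RefSeq table also held 2 start sites of Dnajb1, whose 130-base stretches held neither set of letters. It matched no promoter of Hspa8, Hsp90aa1 or Hsp90ab1. A match describes letters only, and none of these libraries measured binding.

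In GRCm38.p6 coordinates, Hspa1a (ENSMUSG00000091971.3) lies at chr17:34969359-34972156, Hspa1b (ENSMUSG00000090877.3) at chr17:34956429-34959238 and Hsp90ab1 (ENSMUSG00000023944.14) at chr17:45567778-45573261. Hspa8 (ENSMUSG00000015656.17) lies at chr9:40801276-40805202, Hspa5 (ENSMUSG00000026864.13) at chr2:34772090-34776529 and Hsp90aa1 (ENSMUSG00000021270.13) at chr12:110691036-110696395. Hsph1 (ENSMUSG00000029657.15) lies at chr5:149616843-149636498, Hspb1 (ENSMUSG00000004951.10) at chr5:135887919-135889563 and Dnajb1 (ENSMUSG00000005483.10) at chr8:83608175-83612653. The values below are gene-level counts over these loci.

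Total counts ranged from 3.46 to 31.6 mega-counts (M) per library, with 18.7 ± 8.74 M (SD, n = 7) at 0 h and means of 7.16 to 8.62 M at later times. CPM below means counts-per-million after TMM scaling, a correction for differences in library composition, and the members together held 0.674% to 0.817% of the counts of a library. Raw counts per library were 16469 to 107073 for Hsp90ab1 and 4514 to 70879 for Hspa5, but only 17 to 183 for Hspa1b and 5 to 52 for Hspa1a, so the last 2 are the least precise. Caprin1 itself was 766 to 979 CPM in WT at 0 h, 106 and 107 in clone 2, and 1076 in the library labelled clone 4 knockout. At 8 h it was 1113 to 1161 in WT, 125 and 127 in clone 2, and 1008 and 1051 in clone 4. The labels do not say which part of the gene the knockout removes. Gene counts thus did not show the loss that the clone 4 label names, so "clone 4" below means the libraries labelled clone 4 knockout, and KO results are given by clone. WT replicates 1 and 2 at 0 h resembled each other (chi-square per gene 3.36), as did replicates 3 and 4 (2.68), while pairs across them differed more (17.0 to 37.1). At 8 h the same WT pairs gave 1.85 and 2.21, and pairs across them 6.28 to 9.79. At 4 h WT replicate 1 was apart from replicates 2, 3 and 4 (6.00, 10.8 and 13.5), and at 2 h the WT pairs gave 2.09 to 4.64. The 4 h table stood apart in all lines, as WT Gapdh averaged 909, 933, 14.9 and 727 CPM at 0, 2, 4 and 8 h and WT Rps6 244, 272, 1.99 and 231. The cause was not tested. The labels do not say whether replicates were separate cultures, so p-values measure the spread between these libraries, which may be technical.

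Hspa5, the BiP gene, was higher than WT in clone 2 at all 4 times and in clone 4 at 0, 2 and 4 h. Its CPM in WT replicates 1 to 4 at 0 h was 1069.6, 1127, 1255 and 1263, against 2311 and 2236 in clone 2 and 1655 in clone 4. At 2 h the WT libraries had 1274, 1261, 1332 and 1358, clone 2 had 2465 and 2458, and clone 4 had 1776 and 1748. The groups did not overlap at either time, and clone 4 lay between WT and clone 2. At 4 h WT was 1289.9, 1298, 1229 and 1356, clone 2 was 2418 and 2489.7, and clone 4 was 1781 and 1911. At 8 h WT was 1044, 1024, 1059 and 1046, clone 2 was 2156 and 2103, and clone 4 was 1201 and 1125, so that clone 4 had come close to WT while clone 2 had not.

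In edgeR's quasi-likelihood fit of all 12 groups, Hspa5 in clone 2 was higher than WT by 0.95 on the log2 scale at 0 h (SE 0.0614, FDR 8.13e-16), which is 1.93-fold. The difference was 0.91 at 2 h, 0.92 at 4 h and 1.03 at 8 h, all called at a false discovery rate (FDR) under 0.05. In clone 4 the difference was 0.49 at 0 h (SE 0.079, FDR 6.88e-06), or 1.40-fold, then 0.43 at 2 h and 0.51 at 4 h. At 8 h it was 0.16 and was not called (FDR 0.0642). That call depended on the fit: DESeq2 gave 0.17 (FDR 0.0166), and without WT replicate 1 or 4 at 0 h, or WT replicate 1 at 2 h, the FDR was 0.0379, 0.0478 and 0.0404. The clones themselves differed, with Hspa5 lower in clone 4 than in clone 2 by a log2 difference of −0.46 at 0 h (SE 0.091, FDR 9.19e-05), −0.48 at 2 h, −0.41 at 4 h and −0.87 at 8 h (SE 0.0737, FDR 2.1e-12). Both clones then stood for KO, in a fit with the spread between them in its error but each library counted as a replicate. Libraries of the same clone are not independent knockouts, so its FDRs do not stand for independent knockouts. In that fit, Hspa5 was higher than WT by 0.81 at 0 h (SE 0.146, FDR 0.00713), 0.70 at 2 h (FDR 0.00576) and 0.72 at 4 h (FDR 0.00264). At 8 h the value was 0.68 (SE 0.22, FDR 0.0668), which was not called. Without clone 4 replicate 1 or 2 at 8 h it was 0.80 (FDR 0.0354) or 0.82 (FDR 0.0227).

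**Figure D1:**
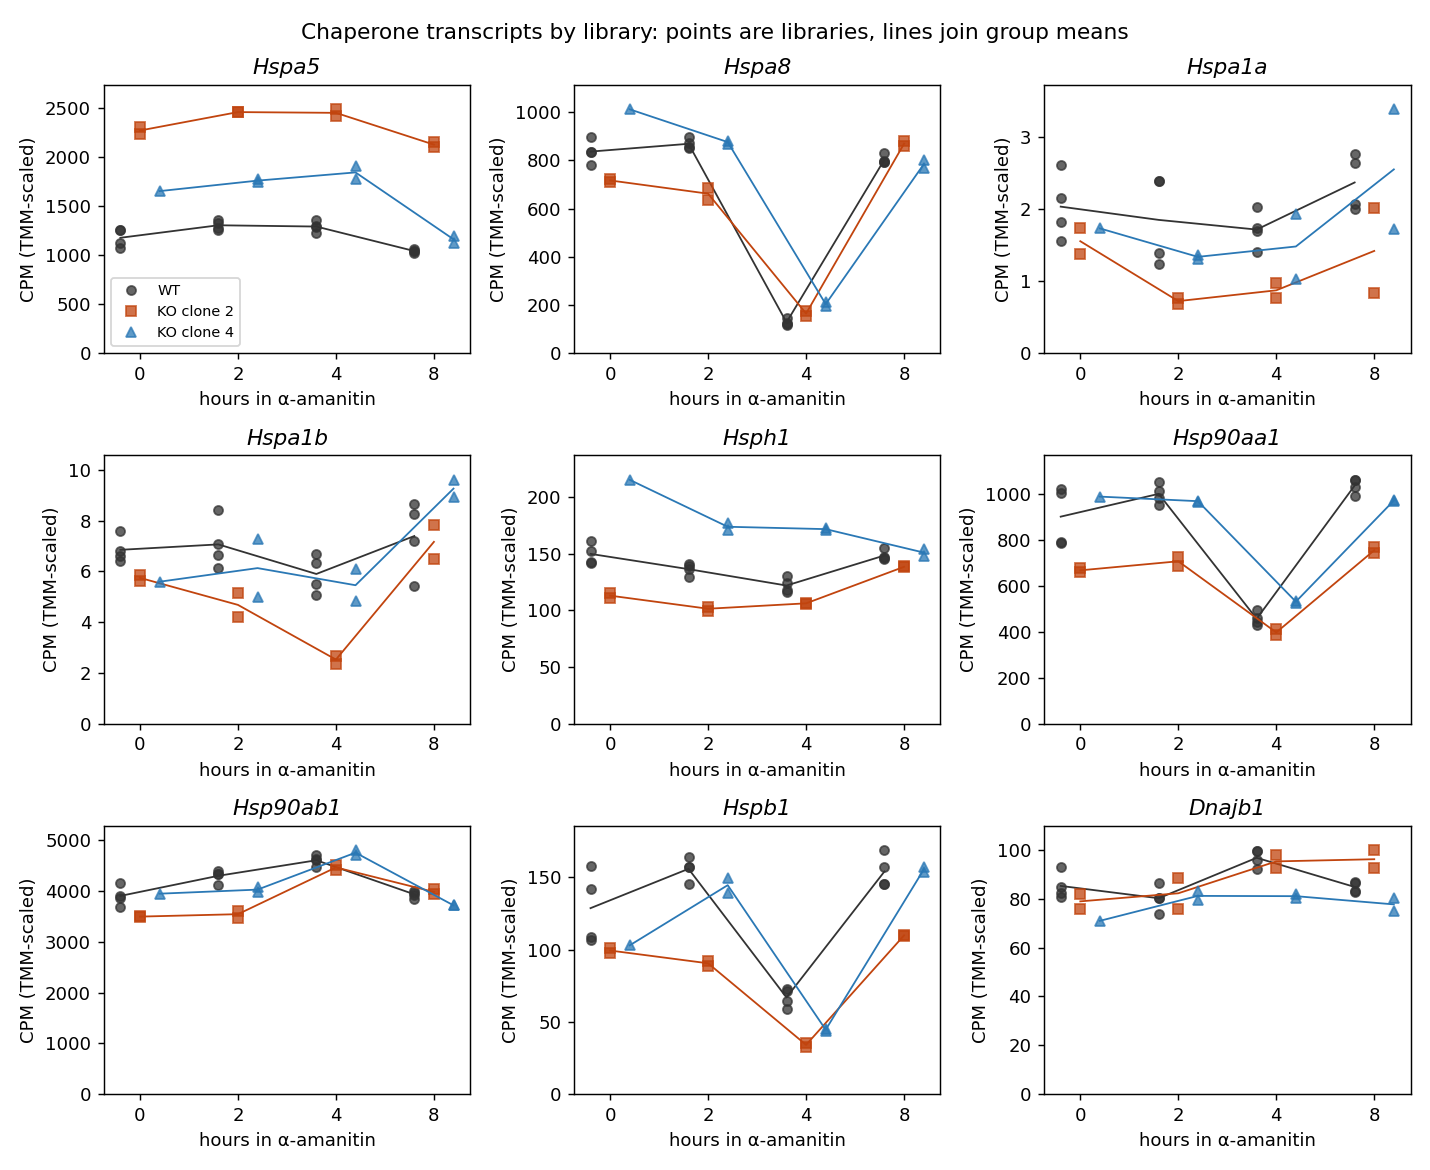
CPM after TMM scaling (y axis, from 0) of the 9 members at 0, 2, 4 and 8 h of α-amanitin (x axis, times evenly spaced); each point is 1 library and lines join the means of WT (circles), KO clone 2 (squares) and KO clone 4 (triangles). Hspa5 in both clones lies above the WT range of 1069.6 to 1263 CPM at 0 h, and Hspa8 drops at 4 h in all lines, to 117 to 211 CPM.

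Other ER chaperones and genes of the unfolded protein response were higher together with Hspa5. Of 27 such genes on a list that leaves out Hspa5, 26 were higher and 0 lower in clone 2 than in WT at 0 h, with a median log2 difference of 1.01. Over all genes tested the median was 0.00, and 60.1% were called in either direction. At 2, 4 and 8 h, 52.0%, 54.7% and 53.2% of all genes were called in clone 2. The list counts there were 26, 25 and 24 higher and 0 lower, with medians of 0.93, 1.04 and 0.98. In clone 4 they were 22, 22, 23 and 20 higher at 0, 2, 4 and 8 h and 0 lower, with smaller medians of 0.44, 0.42, 0.45 and 0.28, against medians of −0.03 to −0.01 over all genes. Without clone 4 replicate 1, the clone 4 count at 8 h was 12. Of all genes, 38.1%, 30.2%, 38.9% and 25.6% were called in clone 4 at the 4 times, and 26.1%, 31.5%, 36.3% and 17.3% for KO against WT. For KO against WT the list had 23, 24, 23 and 17 genes higher at the 4 times and 0 lower. Its 8 h count fell as low as 2 when a WT library at 8 h (replicate 1, 2 or 3) was left out. That count was 3 without WT replicate 4 and 7 without either clone 2 library. The earlier results of these data were known when this list was drawn up, so its direction is no independent evidence.

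Dnajc3 encodes an ER J-domain protein that is a partner of BiP. Its CPM at 0 h was 118, 127, 151 and 152 in WT, 1371 and 1343 in clone 2 and 253 in clone 4, and the KO difference of 2.85 (SE 0.494, FDR 0.00702) was made up of 3.30 in clone 2 and 0.88 in clone 4. Serpinh1 encodes the collagen chaperone HSP47, and was higher in KO by 1.33 (SE 0.268, FDR 0.01), with 1.64 in clone 2 and 0.41 in clone 4. Hsp90b1 encodes the ER HSP90, and had 1015, 1012, 1185 and 1282 CPM in WT, 2262 in both clone 2 libraries and 1767 in clone 4. Pdia6, a protein disulfide isomerase, had 484, 500.3, 497 and 536 CPM in WT, 1074 and 1096 in clone 2 and 629.7 in clone 4. For each of these genes, clone 4 again lay between WT and clone 2. The ERSE letters stood in the 250-base promoters of 7 of the 22 list genes with a RefSeq window (31.8%; Calr, Canx, Creld2, Dnajc3, Hsp90b1, Pdia6 and Syvn1), against 35 of 27025 genes overall (0.13%), these 7 included. The list was drawn from genes of the unfolded protein response, in which this element acts. The shares thus describe the choice of genes and are no independent evidence. Over 31 libraries, Pdia6 (Pearson r 0.98) and Hsp90b1 (0.98) were the genes whose log2 CPM ran closest to that of Hspa5, followed by Fbxo15 (0.98). The libraries share lines, times and depth, so these correlations are descriptions and carry no test.

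Markers of endoderm, a cell type with a heavy load of secreted matrix, moved with the ER genes at 0 h. At 0 h, 60.1% of all genes were called in clone 2 and 38.1% in clone 4. Of the primitive and parietal endoderm list, 21 of 22 genes tested were higher and 0 lower in clone 2 at 0 h (median log2 difference 1.77). In clone 4, 17 were higher and 0 lower of 22, and the median was 0.57. The summed level of the list was 20056 to 22339 CPM in WT, 74531 to 77052 in clone 2 and 34873 in clone 4, the same order of lines as for Hspa5. The ER list itself summed to 9686 to 10871 CPM in WT, 23309 to 23866 in clone 2 and 14125 in clone 4. Fibroblast feeder markers summed to 3845 to 5256 CPM in WT, 2424 to 2434 in clone 2 and 9368 in clone 4, with 10 higher and 6 lower of 18 in clone 2, and 14 and 1 of 18 in clone 4. Genes of the ESC state were still present in WT at 0 h, with a sum of 1050 to 1195 CPM over the 18 pluripotency markers. That sum was 2366 to 2566 CPM in clone 2 and 1477 in clone 4, again the order of lines seen for Hspa5. Retinoic acid response genes summed to 1952 to 2219 CPM in WT, 1347 to 1585 in clone 2 and 1623.5 in clone 4. At 0 h no gene of these lists was at 0 in all libraries of a group, while at 4 h Apoa1 of the endoderm list was at 0 in every WT library. At 8 h the endoderm list summed to 20045 to 23851 CPM in WT, 84903 to 85055 in clone 2 and 29656 to 31957 in clone 4. The ER list then summed to 9523 to 9872, 22563 to 23043 and 11775 to 12154 CPM. Hspa5 itself was 1024 to 1059, 2103 to 2156 and 1125 to 1201 CPM, with clone 4 close to WT. The part that other cell types had in the Hspa5 and ER results was not tested, and in bulk RNA more cells of a type and more RNA per cell cannot be told apart.

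Most cytosolic members were lower in clone 2 than in WT before 8 h, whereas Hspa5 was higher. In clone 2 against WT, 1 member was higher and 5 were lower at 0 h, among all genes of which 60.1% were called in either direction and 29.4% were lower. At 2 h 1 was higher and 7 were lower (52.0% of genes called), at 4 h 2 and 5 (54.7%), and at 8 h 2 and 2 (53.2%). The members' median log2 difference was −0.28, −0.43, −0.19 and −0.03 at the 4 times. In clone 4 against WT, 3 members were higher and 1 lower at 0 h (38.1% of genes called), 2 and 0 at 2 h (30.2%), 4 and 2 at 4 h (38.9%), and none at 8 h (25.6%), where 1 member had an unadjusted p under 0.05 and DESeq2 called 1, Hspa5. Clone 4 against clone 2 gave 3 higher and 1 lower at 0 h (42.5%), 5 and 1 at 2 h (38.3%), 5 and 2 at 4 h (40.1%), and 2 and 2 at 8 h (47.2%). These comparisons share the WT or the clone libraries. With both clones as KO, calls were few, with 1 of 9 members at 0 h (26.1% of genes called), 1 of 8 at 2 h (31.5%), 3 of 9 at 4 h (36.3%) and 0 of 9 at 8 h (17.3%). At 8 h edgeR gave 2 members an unadjusted p under 0.05, and DESeq2 called 1, Hspa5. Lower calls in clone 2 were 5, 7, 5 and 2 of 9 at 0, 2, 4 and 8 h, where 29.4%, 26.2%, 26.6% and 27.0% of all genes were lower.

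**Figure D2:**
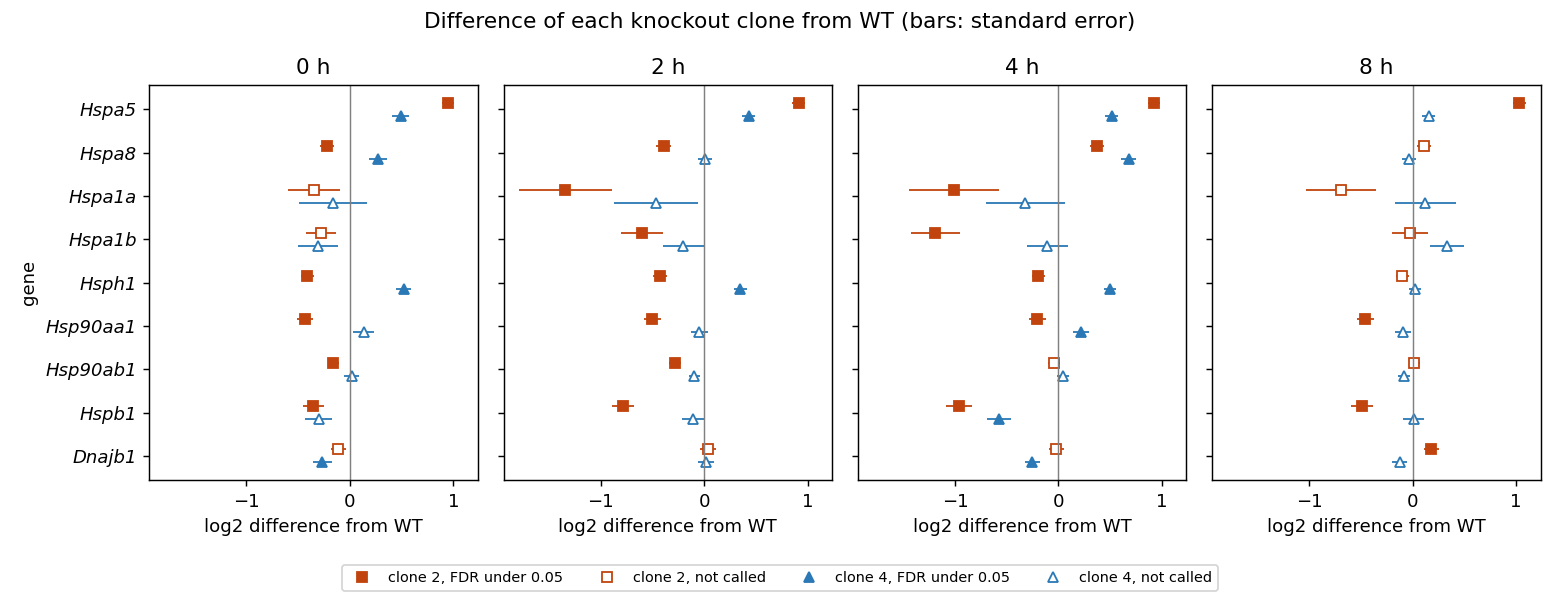
Log2 difference from WT (x axis) of each member (y axis) in KO clone 2 (squares) and KO clone 4 (triangles) at each time, with bars for 1 standard error and filled symbols for FDR under 0.05. Hspa5 lies to the right in both clones at 0, 2 and 4 h, while Hsph1 lies to the left in clone 2 (−0.41 at 0 h) and to the right in clone 4 (0.52).

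Hsph1, the HSP110 exchange factor, went in opposite directions in the clones. At 0 h its CPM was 143, 142, 153 and 161 in WT, 111 and 115 in clone 2, and 215 in clone 4. At 2 h it was 139, 129, 141 and 136 in WT, 99.6 and 103 in clone 2, and 177 and 171 in clone 4. At 4 h it was 116, 129.8, 118 and 124 in WT, 106 and 107 in clone 2, and 171 and 172 in clone 4. Clone 2 lay below and clone 4 above every WT library at these times. At 8 h the values were 147, 145, 146 and 155 in WT, 139 and 138 in clone 2, and 154 and 148 in clone 4, with clone 2 just below the WT range and clone 4 within it. In the joint fit, clone 2 was lower than WT by −0.41 at 0 h (SE 0.0596, FDR 2.6e-07), −0.43 at 2 h and −0.19 at 4 h (FDR 0.00991), the last with an FDR of 0.0715 when clone 2 replicate 1 at 4 h was left out. Clone 4 was higher by 0.52 at 0 h (SE 0.0725, FDR 5.73e-07), 0.35 at 2 h and 0.50 at 4 h. Neither was called at 8 h. The clones differed by 0.93 at 0 h (SE 0.0796, FDR 5.09e-12; 1.90-fold), 0.78 at 2 h and 0.69 at 4 h. KO against WT, which pools clones that went opposite ways at 0, 2 and 4 h, was not called at any time.

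Hspa8, the constitutive HSP70, split the clones in the same way before the drug. At 0 h its CPM was 779, 834, 834 and 897 in WT, 709 and 724 in clone 2, and 1011 in clone 4. At 2 h it was 854, 851, 896 and 873 in WT, 636 and 687 in clone 2, and 882 and 869.6 in clone 4. Clone 2 was below every WT library at both times, while clone 4 was above them at 0 h and within their range at 2 h. The clone 2 difference was −0.22 at 0 h (SE 0.068, FDR 0.00492) and −0.39 at 2 h (FDR 9.76e-06). The 0 h call was lost without clone 2 replicate 1 (−0.21) and in a fit of the 0 h table alone (−0.22). Clone 4 was higher by 0.27 at 0 h (SE 0.0854, FDR 0.0109), a value from 1 library that was not called in a fit of the 0 h table alone (FDR 0.127). At 8 h WT had 831, 792, 793 and 798, clone 2 had 880.3 and 857, and clone 4 had 766 and 800.0, and neither clone was called against WT. Over the 23 libraries outside the 4 h table, Hsph1 was the gene whose log2 CPM ran closest to that of Hspa8 (Pearson r 0.83), a description across libraries that share lines and times.

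Hspa1a and Hspa1b, the heat-inducible HSP70 pair, were nearly silent in all libraries. Hspa1a was 1.55 to 2.61 CPM in WT at 0 h, 1.37 and 1.73 in clone 2 and 1.73 in clone 4, and over all 31 libraries the pair averaged 0.581 ± 0.219 (Hspa1a) and 2.26 ± 0.586 (Hspa1b) CPM per kb of deposited gene length (SD). Since the copies are near-identical and the handling of reads that match both is not given in the sources used here, the split between them is uncertain. The deposited length of Hspa1a, 2966 bases, exceeds its RefSeq span of 2798, so the values per kb are approximate. Hspa1b had 6.40, 7.58, 6.61 and 6.81 CPM in WT at 0 h, 5.64 and 5.85 in clone 2 and 5.59 in clone 4, and neither clone was called. At 4 h Hspa1b was 5.06, 6.70, 6.32 and 5.51 in WT, 2.69 and 2.37 in clone 2 and 4.82 and 6.09 in clone 4. Clone 2 lay below all other libraries there, and was lower than WT by −1.19 (SE 0.241, FDR 7.29e-05) and than clone 4 (difference 1.08, SE 0.269, FDR 0.00135). At 2 h clone 2 was called lower for Hspa1a (−1.34, SE 0.453, FDR 0.0125) and Hspa1b (−0.60, SE 0.203, FDR 0.0132), but without clone 2 replicate 1 at 2 h the FDRs were 0.0603 and 0.162, and without replicate 2 that of Hspa1a was 0.0833. Hspa1a in clone 2 at 4 h (−1.01, FDR 0.0497) lost its call without any 1 of 17 libraries (FDR 0.0504 to 0.238, the last without clone 2 replicate 1 at 4 h) and under DESeq2 (0.117).

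Hsp90aa1, the inducible HSP90, was lower in clone 2 at every time. At 0 h its CPM was 786, 792, 1007 and 1024 in WT, 659.6 and 677 in clone 2, and 989.6 in clone 4. WT replicates 1 and 2 were lower than replicates 3 and 4, the same pairs that resembled each other over all genes. At 2 h it was 954, 985, 1053 and 1014 in WT, 688 and 727 in clone 2, and 967 and 972 in clone 4, and at 8 h it was 1063, 993, 1062 and 1033, then 743 and 769, then 972 and 973. Clone 2 lay under every WT and clone 4 library at these times. Its log2 difference from WT was −0.43 at 0 h (SE 0.0802, FDR 1.59e-05), −0.50 at 2 h (FDR 2.4e-06), −0.20 at 4 h (FDR 0.0331) and −0.46 at 8 h (FDR 9.46e-06). The 4 h call was lost without clone 2 replicate 1 (FDR 0.242) or 2 (0.0565) or WT replicate 4 (0.102) of that time. Clone 4 was above clone 2 by 0.57, 0.45, 0.42 and 0.36 at the 4 times, all called, and was called against WT at 4 h only, by 0.22 (FDR 0.0293). Without clone 4 replicate 1 or 2 at 4 h that FDR was 0.099 or 0.152, and without WT replicate 2 or 3 it was 0.0772 or 0.0652.

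Hsp90ab1, the constitutive HSP90, drew the most counts of the 9 members, which also depends on transcript length. Its CPM at 0 h was 3902, 4167, 3691 and 3871 in WT, 3491 and 3509 in clone 2, and 3952 in clone 4, with clone 2 below the other lines. At 2 h it was 4403, 4345, 4347 and 4122 in WT, 3480.5 and 3616 in clone 2, and 4086 and 3979 in clone 4. Clone 2 was lower than WT by −0.28 at 2 h (SE 0.0565, FDR 7.64e-05). Its difference at 0 h was −0.16 (FDR 0.0145), with an FDR of 0.0855 and 0.0706 without clone 2 replicate 1 and 2 and of 0.0583 without WT replicate 2. That 0 h call was also lost in a fit of the 0 h table alone (−0.15) and with no filter on low counts (−0.14). Neither clone was called at 4 or 8 h, nor was clone 4 at any time. At 2 h clone 4 was above clone 2 by 0.18 (FDR 0.0217), which was lost without clone 2 replicate 1 (FDR 0.149) or clone 4 replicate 1 (0.121) or 2 (0.0512) of that time.

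Hspb1, the small heat shock protein, was also lower in clone 2. At 0 h its CPM was 158, 142, 109 and 107 in WT, 101 and 97.8 in clone 2, and 103 in clone 4. At 2 h it was 164, 157, 145 and 157 in WT, 92.3 and 88.8 in clone 2, and 139 and 149.8 in clone 4. At 8 h it was 145, 157, 146 and 169 in WT, 110.3 and 109 in clone 2, and 157 and 153 in clone 4. Clone 2 lay under all WT libraries at each of these times, with a narrow margin at 0 h, where WT replicates 1 and 2 were again apart from 3 and 4. The clone 4 library of 0 h also lay under all WT libraries, with a difference from WT of −0.30 that was not called. The clone 2 difference was −0.35 at 0 h (SE 0.101, FDR 0.00315), −0.78 at 2 h (FDR 3.31e-07), −0.96 at 4 h (FDR 1.07e-07) and −0.49 at 8 h (FDR 0.000208). In a fit of the 0 h table alone the FDR was 0.0854. Clone 4 was called lower at 4 h alone (−0.57, FDR 0.000293), and KO against WT was also called there (−0.77, SE 0.128, FDR 0.00304). Hspb1 fell in every line in the 4 h table, which stood apart, and the table's part in these differences was not tested. Clone 4 exceeded clone 2 by 0.67 (2 h), 0.39 (4 h) and 0.50 (8 h), and the 4 h value was lost without any 1 of the 4 clone libraries of that time (FDR 0.0644 to 0.169).

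Dnajb1, the HSP40 partner, stayed within a narrow range, from 70.9 to 99.8 CPM over all 31 libraries. At 0 h it was 84.8, 93.1, 80.7 and 82.2 in WT, 81.8 and 76.0 in clone 2, and 70.9 in clone 4. At 8 h it was 86.3, 82.8, 86.8 and 83.3 in WT, 99.8 and 92.5 in clone 2, and 80.2 and 75.1 in clone 4. At 8 h clone 2 lay above and clone 4 below every WT library, the reverse of their order for Hsph1. Clone 4 was lower than WT by −0.27 at 0 h (SE 0.09, FDR 0.0184) from 1 library, and a fit of the 0 h table alone gave an FDR of 0.202. At 4 h it was lower by −0.25 (FDR 0.00668), with an FDR of 0.0633 without clone 4 replicate 2. Clone 2 was higher by 0.18 at 8 h (FDR 0.0328), which did not hold without clone 2 replicate 1 (FDR 0.284), WT replicate 2 (0.066) or WT replicate 4 (0.0619) of that time. The clones differed at 8 h by −0.31 (SE 0.0833, FDR 0.00258). Their difference at 4 h (−0.23, FDR 0.0262) was lost without clone 2 replicate 1 (FDR 0.178) or clone 4 replicate 1 (0.0833) or 2 (0.105).

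The time course asks which transcripts lose share when transcription is blocked. Counts give the share of a transcript among all RNA and not its amount, so a rise in share is not a rise in amount. In WT, 3 members rose and 1 fell between 0 and 2 h (27.7% of genes called), 3 rose and 4 fell by 4 h (52.2%), and 2 rose and 1 fell by 8 h (51.1%). In clone 2 no member was called at 2 h (11.8% of genes called), where 2 had an unadjusted p under 0.05 and DESeq2 also called 0. There 2 rose and 4 fell by 4 h (42.1%), and 4 rose and 0 fell by 8 h (28.4%). In clone 4 the counts were 1 and 1 at 2 h (6.32%), 1 and 4 at 4 h (23.1%), and 2 and 3 at 8 h (19.5%), all resting on 1 library at 0 h. The members' median log2 change in WT by 8 h was 0.01, as was that of all genes tested, 0.01.

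By 8 h of α-amanitin in WT, Hspb1 had risen by 0.28 (SE 0.0833, FDR 0.00608) and Hsp90aa1 by 0.20 (SE 0.0646, FDR 0.00972), while Hspa5 had fallen by 0.18 (SE 0.0518, FDR 0.00473). The Hsp90aa1 rise had an FDR of 0.0593 or 0.0612 without WT replicate 1 or 2 at 0 h. The other 6 members had log2 changes of −0.06 to 0.28 and were not called. In clone 4, Hspa5 fell more by 8 h, with a change of −0.51 (SE 0.0879, FDR 6.85e-05), but the difference of this change from that of WT was −0.33 (SE 0.103) and was not called (FDR 0.0557). DESeq2 called it (−0.32, FDR 0.0163), as did edgeR without WT replicate 3 (FDR 0.0242) or 4 (0.0163) at 0 h or WT replicate 4 at 4 h (0.0487).

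The change over 8 h differed from WT for Hsph1 and Hspa8. Hsph1 fell by 0.51 in clone 4 (FDR 2.08e-05) and rose by 0.29 in clone 2 (FDR 0.00139), while its change in WT was −0.02. The difference from WT was −0.49 for clone 4 (SE 0.0955, FDR 0.00312) and 0.31 for clone 2 (SE 0.0847, FDR 0.0191). These shifts took both clones from either side of WT at 0 h to near it at 8 h. The clone 4 difference was called in every alternative run that could be made. It rests on 1 clone 4 library at 0 h, and no run could leave that library out. The clone 2 difference was lost without clone 2 replicate 1 at 0 h or replicate 1 or 2 at 8 h. Hspa8 rose by 0.28 in clone 2 (FDR 0.00682), with a difference from WT of 0.34 (SE 0.0956, FDR 0.0243). In clone 4 Hspa8 fell by 0.37 (FDR 0.00473), with a difference from WT of −0.31 (SE 0.11, FDR 0.0923) that edgeR did not call and DESeq2 did. The clone 2 rise had an FDR of 0.0561 without clone 2 replicate 1 at 0 h and 0.0584 without replicate 1 at 8 h. The clone 2 difference was lost without any 1 of the 4 clone 2 libraries at 0 and 8 h (FDR 0.0628 to 0.121). Of all genes, 7.42% were called for this difference in clone 2 and 4.09% in clone 4, against 2 and 1 of the 9 members.

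At 4 h, 3 members fell in every line and returned by 8 h. Hspa8 had 122, 148, 126 and 117 CPM in WT at 4 h, 155 and 175 in clone 2, and 197 and 211 in clone 4, each far under every library of the same line at the other times. Its change from 0 h was −2.72 in WT (6.58-fold lower), −2.12 in clone 2 (4.35-fold lower) and −2.31 in clone 4 (4.97-fold lower). Hsp90aa1 had 459, 429, 445 and 497 CPM in WT, 385 and 411 in clone 2, and 527 and 536 in clone 4, with changes of −0.98, −0.75 and −0.90. Hspb1 had 72.5, 71.5, 64.5 and 59.2 CPM in WT, 35.6 and 32.7 in clone 2, and 45.4 and 43.8 in clone 4, with changes of −0.93, −1.54 and −1.20. All 9 of these changes were called. The dip was not shared by Hsp90ab1, which had 4636, 4708, 4619.9 and 4477 CPM in WT, 4421 and 4518 in clone 2, and 4714 and 4806 in clone 4, and rose by 0.24, 0.35 and 0.27. The clone 4 value had an FDR of 0.0535 without clone 4 replicate 2 at 4 h.

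The fall of Hspa8 at 4 h was one of a group of large falls in that table. Of the WT genes with at least 20 CPM at 0, 2 and 8 h, 60 of 7214 (0.832%) were more than 4-fold below each of those levels at 4 h, Hspa8 among them, and 35 of the 60 were ribosomal protein genes (of 84 considered). In clone 2 the number was 69 of 7111, with Hspa8 narrowly among them (mean 165 CPM at 4 h and 662 at 2 h). In clone 4 it was 65 of 7230, without Hspa8, whose mean was 204 CPM at 4 h and 783 at 8 h. The housekeeping transcripts Gapdh, Rps6 and Actg1 (WT means 303, 405, 6.49 and 392 CPM at the 4 times) fell further than any member. The part of the table itself in the 4 h values was not tested. That limit holds for every result at 4 h, those of Hspb1 and Hsp90aa1 included, which also dipped there. The higher Hspa8 in KO than WT at 4 h (0.51, SE 0.117, FDR 0.0109), and in clone 2 (0.37) and clone 4 (0.68) alone, rests on these low values.

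**Figure D3:**
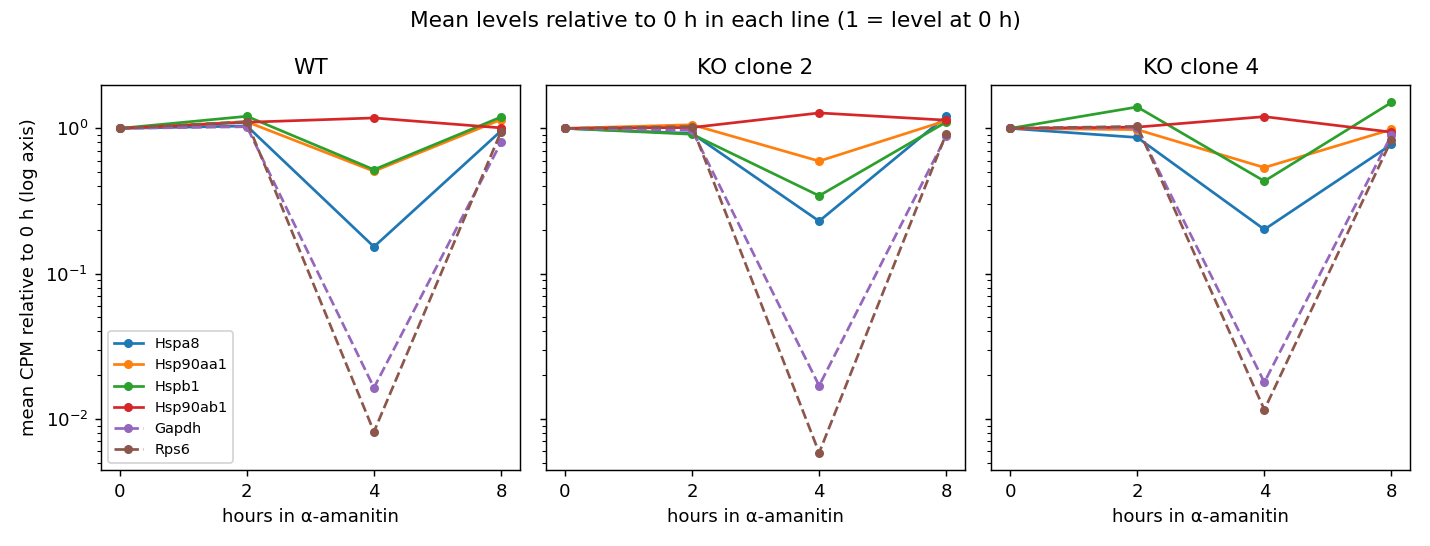
Mean CPM of each gene relative to its mean at 0 h in the same line (y axis, log scale) at 0, 2, 4 and 8 h of α-amanitin (x axis, times evenly spaced), for WT, KO clone 2 and KO clone 4; solid lines are members and dashed lines are Gapdh and Rps6. At 4 h Hspa8 dips in each line, as do Gapdh (909 to 14.9 CPM in WT) and Rps6 (244 to 1.99), while Hsp90ab1 stays near its starting level.

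The other chaperone families, grouped by role, did not move as one in the way the ER list did. The lists share genes, so their counts are not separate. Dnajc3 stands on both the J-domain and the ER list, and Serpinh1 on both the HSF1 target and the ER list. The HSF1 target list also repeats genes of other lists, such as the cochaperone gene Chordc1. At 0 h in clone 2, where 60.1% of all genes were called and 29.4% were lower, 12 of 23 other HSF1 targets and stress genes were lower and 6 higher (median −0.26), as were 8 and 3 of 19 HSP90 cochaperones, 7 and 2 of 16 chaperonin and prefoldin genes, and 4 and 1 of 5 heat shock factors. In clone 4 the HSF1 target list went the other way, with 12 higher and 3 lower of 23 (median 0.29), where 38.1% of all genes were called. Hsf1, the factor itself, had 45.7, 44.6, 34.5 and 35.0 CPM in WT at 0 h, 31.7 and 29.3 in clone 2 and 38.5 in clone 4. It was lower in clone 2 by −0.37 (SE 0.109, FDR 0.00415). For KO against WT at 0 h, where 26.1% of all genes were called, the counts were 0 higher and 1 lower of 5 heat shock factors, 0 and 1 of 20 cochaperones, 0 and 0 of 16 chaperonin and prefoldin genes, 1 and 1 of 12 mitochondrial chaperones, 1 and 0 of 5 small heat shock proteins, 3 and 1 of 17 other HSP70 and exchange factors, 12 and 3 of 43 J-domain proteins and 4 and 1 of 23 HSF1 targets.

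Cryab and Bag5 were higher at 0 h with near-equal values in the clones. Cryab, a small heat shock protein also called αB-crystallin, was higher in KO by 0.94 (SE 0.109, FDR 0.00225), with 0.94 in clone 2 and 0.95 in clone 4. Bag5, an HSP70 exchange factor, was higher by 0.80 (SE 0.0977, FDR 0.00248), with 0.79 and 0.78. Clpb, a mitochondrial disaggregase, was lower by −0.61 (FDR 0.00996), a call lost by a narrow margin without clone 2 replicate 2 at 0 h. Fkbp5 (−0.37), Dnajb5 (−1.26), Hspa9 (0.36) and Gadd45b (−0.63) were called with FDRs of 0.0268 to 0.0338, and each lost its call without either clone 2 library or WT replicate 1 of 0 h (FDR 0.0664 to 0.12). In WT by 8 h, where 51.1% of all genes were called, 10 of 16 chaperonin and prefoldin genes had risen and 0 had fallen (median 0.21), 17 and 3 of 43 J-domain genes, and 8 and 14 of 27 ER genes (median −0.16). Hspa2, a testis-enriched HSP70, had risen by 0.88 (FDR 3.59e-10) and the mitochondrial HSP70 gene Hspa9 by 0.42 (FDR 3.09e-09), while Pdia4, an ER disulfide isomerase, had a change of −0.47 (FDR 2.91e-10).

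**Figure D4:**
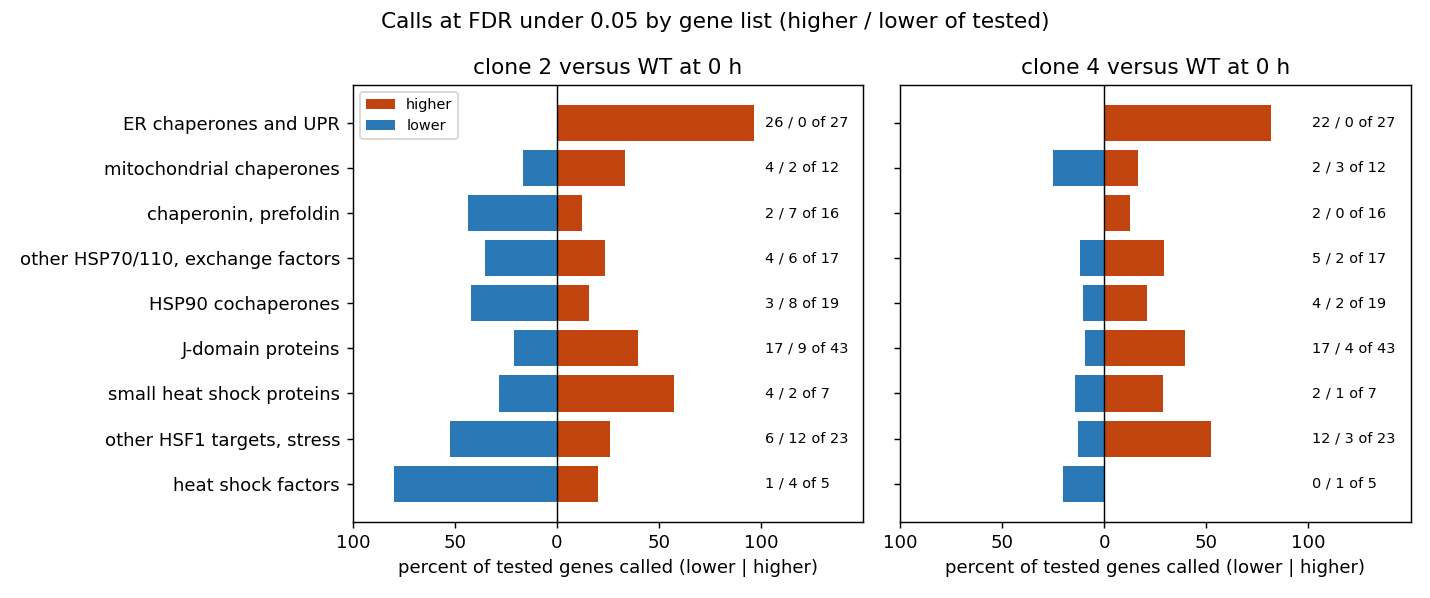
Percent of tested genes of each list (y axis) called at FDR under 0.05 in KO clone 2 (left) and KO clone 4 (right) against WT at 0 h, with lower calls to the left of 0 and higher calls to the right (x axis), and the counts printed beside each bar. The ER list stands at 26 of 27 and 22 of 27 higher with 0 lower, while the other lists hold calls in both directions or few calls.

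The CAPRIN1 RIP-seq samples were represented by 2 lists of gene symbols that give no values or direction. The list comparing 2I with RA (2502 symbols) held Hspa8, Hsp90aa1, Hsp90ab1 and Hspb1, and the list comparing CNT with RA (2170 symbols) held Hspa5. Caprin1 was in both. Genes with a mean of at least 50 CPM were in the lists at 34.2% and 33.3%, so 4 and 1 of 9 members is a description only. As for other genes with a like pattern over the 23 libraries outside the 4 h table, Hsp90aa1 ran closest to Cct2 (Pearson r 0.97), a subunit of the cytosolic chaperonin, and Hspb1 to the tubulin gene Tubb6 (0.95). The likeness was weaker for Hsp90ab1 (Ndufa10, 0.89), Hsph1 (Ola1, 0.87), Hspa1a (Mn1, 0.81), Dnajb1 (Rpl27, 0.78) and Hspa1b (Fbxw17, 0.78). Between members, Hspa5 ran against Hspb1 (r −0.79), Hsp90aa1 (−0.75) and Hspa1a (−0.73).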

How the data were processed

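RNA-seq libraries were made from total RNA with a stranded mRNA kit, per the labels' protocols. The authors deposited raw read counts per gene in 4 tables, 1 per time, along with gene length, a value of another kind, and a pair of RIP-seq lists of another kind that hold gene symbols only. The submitters' processing notes name the builds GRCm38 and mm10 and the tools Cuffdiff, Cufflinks, DESeq2, TopHat, STAR (2.4.0.1) and FastQC (0.11.9). Not given in the sources used here are the counting program, its strand setting and its handling of reads that match several genes. Of 51520 lines per table, 110 that repeat an identifier were dropped. No sample column was left unmapped, and the 0 h table was used with 7 libraries because clone 4 replicate 1 had no column in it.

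Counts went through edgeR 4.0.16 under R 4.3.3 (robust quasi-likelihood fit, TMM, filterByExpr), with Benjamini-Hochberg adjustment over all genes tested and calls at FDR under 0.05. KO was compared with WT in a fit of each table, with every clone library counted as a KO replicate. Clones, times and their differences were compared in a joint fit of 12 groups with 19 residual degrees of freedom, where clone 4 at 0 h has 1 library and takes its spread from the other groups. The SE was obtained from the log2 difference and edgeR's F statistic (its square root). DESeq2 1.42.0, other scalings and filters, a replicate block, other groupings and each library left out were the alternatives, with leaving out the 4 h table and the ER list counts added after seeing the data. The script was tested on simulated data. The members and lists were chosen with earlier results of these data known. Named were all members and Caprin1 and, in each list, the called genes of largest rise and fall whose mean over all libraries reached 5 CPM, for KO against WT at 0 h and WT at 8 h; of these, the text gives those it turns on. Hsf1, Hsp90b1, Pdia6, Gapdh, Rps6 and Actg1 were added after their values were seen. Likeness is Pearson's r of log2(CPM + 1), for the 3 closest genes. Sequences and positions are from RefSeq on GRCm38.p6.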

Additional observations from a re-analysis of the deposited data

Results flagged for a closer look

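Among 36 sets of 4 WT libraries (9 members at 4 times), 1 held a library far from the others: Hspa8 in WT replicate 1 at 8 h had 831 CPM, against 792 to 798 in the other WT libraries. Chance alone sets apart about 1 in 20 such sets. All other results listed here are tested differences between the clones, or between a clone and WT in their change over 8 h.

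The clones, which carry the same knockout label, were called different at some time for all members but Hspa1a. Of all genes, 42.5%, 38.3%, 40.1% and 47.2% were called between the clones at 0, 2, 4 and 8 h, so such calls were common. Clone 4 minus clone 2, on the log2 scale, was −0.46, −0.48, −0.41 and −0.87 for Hspa5 at 0, 2, 4 and 8 h. For Hsp90aa1 it was 0.57, 0.45, 0.42 and 0.36 at the same times. It was 0.93, 0.78 and 0.69 for Hsph1 and 0.50, 0.40 and 0.31 for Hspa8 at 0, 2 and 4 h. The Hspa8 value at 4 h had an FDR of 0.0932 without clone 2 replicate 1 of that time. Hspb1 gave 0.67, 0.39 and 0.50 at 2, 4 and 8 h. Dnajb1 gave −0.23 at 4 h and −0.31 at 8 h, Hsp90ab1 gave 0.18 at 2 h and Hspa1b gave 1.08 at 4 h. Hspa5 and Dnajb1 were thus lower in clone 4 than in clone 2, and the other members named were higher.

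The change from 0 to 8 h differed from that of WT by 0.34 for Hspa8 in clone 2, by 0.31 for Hsph1 in clone 2 and by −0.49 for Hsph1 in clone 4. The clone 4 value rests on 1 library at 0 h.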

How the results depend on the processing

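Members called out of all members and times numbered 5 of 35 for KO against WT (5 to 7 when single libraries were left out; 18 with the mean of the clones in the joint fit), 25 for clone 2 against WT (22 to 26), 12 for clone 4 against WT (10 to 14) and 21 for clone 4 against clone 2 (18 to 22). For changes over time they were 14 of 27 in WT (11 to 14; 8 with no filter on low counts and 4 with the clones pooled in 8 groups), 10 in clone 2 (7 to 10) and 12 in clone 4 (10 to 12). For the difference of the 8 h change they were 3 (1 to 6; 7 by DESeq2), with 1 without clone 2 replicate 1 at 0 h or either clone 2 library at 8 h, 5 without WT replicate 3 at 0 h and 6 without WT replicate 4 at 0 h. Without the 4 h table, the calls outside 4 h went from 18 to 18 in clone 2, from 6 to 7 in clone 4, from 7 to 6 for WT change and from 3 to 3 for the difference. Of all genes, 17.3% to 36.3% were called for KO against WT over the times, and 52.0% to 60.1% for clone 2. The shares were 25.6% to 38.9% for clone 4 and 38.3% to 47.2% between the clones. For changes over time they were 27.7% to 52.2% in WT, 11.8% to 42.1% in clone 2 and 6.32% to 23.1% in clone 4. For the difference of the 8 h change they were 7.42% (clone 2) and 4.09% (clone 4).

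The ER list's higher genes for KO against WT ranged over 19 to 26 at 0 h, 17 to 25 at 2 h, 17 to 24 at 4 h and 2 to 24 at 8 h (7 there with no filter) when single libraries were left out. In clone 2 the ranges were 26 to 26, 25 to 26, 25 to 26 and 23 to 24, and in clone 4 they were 22 to 22, 19 to 22, 22 to 23 and 12 to 21. A fit of the 0 h table alone gave 14 in clone 4 at 0 h.

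Replicate numbers are shared between lines and times, but were not taken as pairs. Between lines at 1 time, the deviations of same-numbered libraries from their group means correlated at −0.274 to 0.194, over 0.1 in 5 of 20 comparisons. Between times the values were −0.149 to 0.508 in WT (7 of 24 over 0.1), 0.0303 to 0.201 in clone 2 (6 of 12) and −0.0665 to 0.0321 in clone 4 (0 of 6). With a replicate block, KO against WT had 0 member calls, the smallest FDR of a member being 0.0802 (Hspb1 at 4 h), while 6 of 35 had an unadjusted p under 0.05 and DESeq2 without the block called 6. Hspa5 was then 0.91 (FDR 0.103), 0.74 (0.152), 0.71 (0.106) and 0.69 (0.453) at the 4 times, and the ER list had 0 calls at each time, with 24, 20, 17 and 8 genes at an unadjusted p under 0.05. All 9 other list genes named by rule for KO against WT at 0 h, Cryab, Bag5, Serpinh1, Dnajc3 and Clpb included, lost their calls under the block (FDR 0.084 to 0.18). The block gave 5 calls for the difference of the 8 h change. Of 127 single-gene differences called, 0 changed sign under any alternative run, and the largest numbers of lost calls were 21 of 127 with no filter on low counts, 16 of 127 with the block and 16 of 30 with 8 groups. Of 140 not called, 42 changed sign. Depth limits Hspa1a and Hspa1b most.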
